A study of Mus musculus with 24 samples.

Results

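This comparison set the H3K27ac peaks of male quadriceps myofibers 8 days after the last weekly dose of prednisone beside those 6 days after it. Its members were the autosomal peaks of the 2 lists, 31982 of 32188 at day 6 and 20355 of 20499 at day 8, or 52337 of the 469078 peaks in the 8 lists of the series. A day 6 peak was called kept when it shared at least 1 bp with a day 8 peak and lost when it did not, and a day 8 peak with no day 6 overlap was called gained. The mice were C57BL/6J males (strain label C57BL/6), 10 weeks old at the start. They received 1 mg/kg prednisone by i.p. injection once a week, 5 injections over 4 weeks, and muscle was taken 6 or 8 days after the fifth dose. The study's general methods give DMSO vehicle on the other days, and its scheme for this cohort also marks times with no injection. Each day had 2 H3K27ac libraries and 1 input library, and 1 peak list was deposited for each day. The vehicle-treated and day 4 males and the females of the series enter only for comparison. With 1 list per day there is no replicate error, so no difference below was tested, and Wilson 95% confidence intervals (CIs) cover counting error only.

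Acetylation of histone H3 at lysine 27 marks active promoters and enhancers. Glucocorticoids such as prednisone act through the glucocorticoid receptor (GR), a nuclear receptor that binds DNA and recruits coactivators, some of which acetylate histones. In skeletal muscle GR is known to act near genes of the clock, of amino acid and glucose metabolism and of protein breakdown. A peak list records where tags passed a threshold, so a lost peak is one that no longer passed it, and a weak signal at the later day cannot be told apart from none.

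Promoter peaks differed in base composition between fates, and the promoters of 6 genes are printed as examples. All are RefSeq promoters of 300 bases (GRCm38.p6, the assembly of mm10), 5′ to 3′ on the strand of the gene. Capitals mark the GC box GGGCGG, the site of Sp1-family factors, on either strand. Kif13a (chr13:46929669-46929968) and Lzts2 (chr19:45017885-45018184) had peaks of high Score that were kept. Bst2 (chr8:71537423-71537722) and Ppargc1a (chr5:51567676-51567975) had peaks that were lost. Rora (chr9:68653536-68653835) had a gained peak, and at Irs1 (chr1:82291390-82291689) a peak reached the promoter at day 8 only. Ppargc1a and Irs1 were chosen after their values were seen.
Kif13a: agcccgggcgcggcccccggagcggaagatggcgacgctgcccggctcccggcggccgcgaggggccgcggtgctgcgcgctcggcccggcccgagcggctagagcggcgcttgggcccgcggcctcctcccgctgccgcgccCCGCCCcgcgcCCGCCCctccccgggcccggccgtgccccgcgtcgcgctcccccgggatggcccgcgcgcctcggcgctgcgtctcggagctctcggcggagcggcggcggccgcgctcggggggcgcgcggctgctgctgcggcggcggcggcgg
Lzts2: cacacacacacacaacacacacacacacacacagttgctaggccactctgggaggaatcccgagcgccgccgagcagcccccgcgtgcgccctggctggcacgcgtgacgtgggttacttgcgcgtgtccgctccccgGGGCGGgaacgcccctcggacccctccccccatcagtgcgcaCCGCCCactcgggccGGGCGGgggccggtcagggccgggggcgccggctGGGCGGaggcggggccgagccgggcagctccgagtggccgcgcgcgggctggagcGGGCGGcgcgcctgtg
Bst2: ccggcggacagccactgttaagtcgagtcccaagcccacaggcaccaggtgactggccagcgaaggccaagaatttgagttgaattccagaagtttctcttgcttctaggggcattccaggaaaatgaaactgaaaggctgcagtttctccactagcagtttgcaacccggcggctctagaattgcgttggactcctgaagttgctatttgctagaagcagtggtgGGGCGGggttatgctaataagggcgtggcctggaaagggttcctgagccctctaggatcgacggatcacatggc
Ppargc1a: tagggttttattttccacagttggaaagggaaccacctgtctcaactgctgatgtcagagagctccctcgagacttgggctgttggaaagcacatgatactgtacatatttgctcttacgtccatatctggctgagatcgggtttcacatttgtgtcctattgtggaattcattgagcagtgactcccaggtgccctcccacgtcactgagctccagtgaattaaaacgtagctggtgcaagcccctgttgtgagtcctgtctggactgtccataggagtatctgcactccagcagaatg
Rora: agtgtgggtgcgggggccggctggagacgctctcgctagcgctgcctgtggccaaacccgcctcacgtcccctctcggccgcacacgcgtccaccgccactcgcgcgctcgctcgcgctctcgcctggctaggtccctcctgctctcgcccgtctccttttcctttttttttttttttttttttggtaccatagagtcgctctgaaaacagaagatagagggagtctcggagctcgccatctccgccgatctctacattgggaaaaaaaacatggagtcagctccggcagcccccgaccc
Irs1: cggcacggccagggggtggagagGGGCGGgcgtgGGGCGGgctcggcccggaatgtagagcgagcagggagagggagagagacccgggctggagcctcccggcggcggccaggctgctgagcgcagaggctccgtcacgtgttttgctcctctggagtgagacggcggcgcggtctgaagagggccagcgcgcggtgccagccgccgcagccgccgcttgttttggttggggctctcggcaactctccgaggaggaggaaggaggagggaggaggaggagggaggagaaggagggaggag

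The promoters of Kif13a and Lzts2, genes with kept promoter peaks, held 62 and 39 CpG dinucleotides and 2 and 5 GC boxes. The promoters of Bst2 and Ppargc1a, genes with lost promoter peaks, held 11 and 5 CpG and 1 and 0 GC boxes. The bases printed for Kif13a lay outside its day 6 peak and partly within its day 8 peak. Those printed for Bst2 overlapped its lost peak only at an edge. Rora and Irs1 each held 28 CpG, with 0 and 2 GC boxes. Over the RefSeq promoters of this length the median was 25 CpG in 3770 matched genes with a promoter peak at both days, 20 in 1009 at day 6 only, 22 in 1593 at day 8 only and 16 in all 15983. The GC box was in 73.3%, 60.7%, 73.4% and 51.2% of them. By CpG, Kif13a and Lzts2 thus lay above the median of their group and Bst2 and Ppargc1a below that of theirs. The printed examples therefore differ more than the groups do.

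The day 6 list had 50.5 M tags behind it and the day 8 list 32.1 M, as recovered from the spacing of low normalized tag counts. Its lowest findPeaks Score, a tag number not scaled for depth, was 25 at day 6 and 15 at day 8, which is 4.95 and 4.68 per 10 M tags. Peaks covered 26.5 Mb at day 6 and 16.9 Mb at day 8, and the median width was 500 bp at both days. Autosomal peaks held 5.33% of all tags at day 6 and 5.93% at day 8. The regions of highest tag density, 11 day 6 peaks and 10 day 8 peaks, held 29.1% and 51.6% of the tags in peaks, and the peaks named below were chosen outside them. The part of depth in the fates below was not tested.

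Of the day 6 promoter peaks 2596 were still called at day 8 and 1028 were not, while most intronic and intergenic peaks were not. With only peaks at a fold over input of 4 or more in both lists the promoter counts turned round, to 753 kept and 1024 lost, and the share kept of all day 6 peaks given next became 10.5%. Of 31982 day 6 peaks, 7699 were kept (24.1%, 95% CI 23.6 to 24.5) and 24283 were lost, a share of 75.9%. Of 20355 day 8 peaks, 7768 overlapped a day 6 peak and 12587 were gained, a share of 61.8%. The shared bases, 6.90 Mb, were 26.0% of the day 6 bases and 40.9% of the day 8 bases. Only 1773 lost peaks lay within 1 kb of a day 8 peak, and 1454 gained peaks within 1 kb of a day 6 peak.

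Kept peaks were wider than lost peaks and lay nearer to transcription starts. The median width was 1149 bp for kept and 500 bp for lost peaks, and 69.8% of lost peaks had the minimum width of 500 bp. The median distance from the nearest protein-coding start was 0.735 kb for kept, 35.7 kb for lost and 24.6 kb for gained peaks. Promoter peaks, with a center from 1 kb before to 100 bp after a start, made up 33.7% of kept peaks (CI 32.7 to 34.8), 4.23% of lost (3.99 to 4.49) and 8.49% of gained peaks (8.02 to 8.99). With any overlap of that window in place of the center the shares were 55.7%, 5.97% and 15.3%. Introns held 43.1%, 54.9% and 46.7% of them, and intergenic sequence 12.8%, 36.8% and 35.7%. Read the other way, 71.6% of day 6 promoter peaks were kept, 48.9% of exonic, 19.9% of intronic and 9.94% of intergenic peaks.

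**Figure D1:**
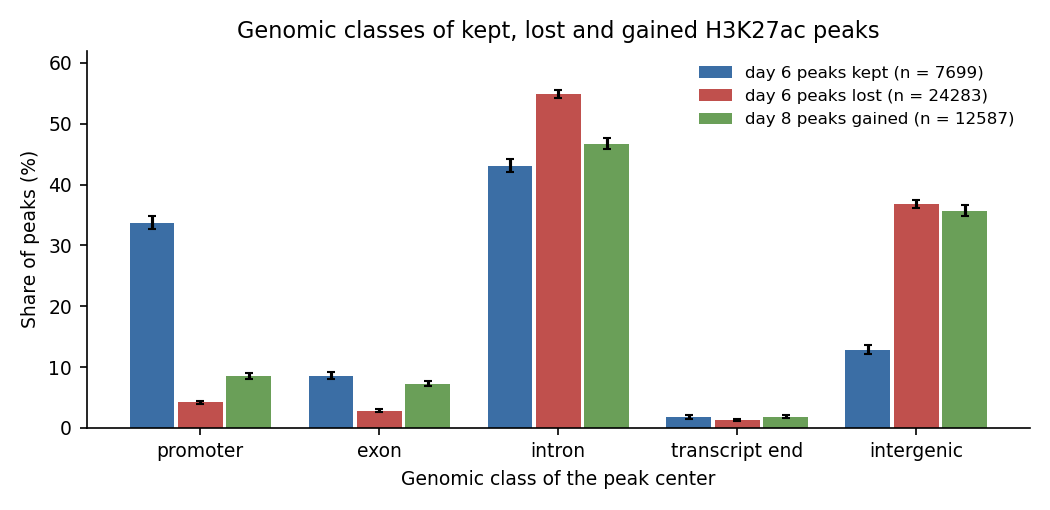
Share of kept day 6, lost day 6 and gained day 8 peaks (y axis, percent) whose center fell in each genomic class (x axis), with Wilson 95% CIs as error bars. Promoters held 33.7% of kept but 4.23% of lost and 8.49% of gained peaks.

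At day 6 promoter peaks were kept more often than intergenic peaks of like width. Among day 6 peaks of 500 bp, 36.0% of 761 promoter peaks were kept against 2.89% of 7156 intergenic peaks. Among those over 2000 bp the shares were 96.7% of 492 and 79.7% of 261. All 51 day 8 peaks over 5000 bp overlapped a day 6 peak (CI 93.0 to 100%), and 102 of the 105 day 6 peaks of that width were kept.

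Peaks of high Score were shared more often. The highest decile of day 6 peaks was kept in 83.4% and the lowest in 1.22%. The fall was not even, with 10.5%, 1.72% and 9.22% in deciles 7, 8 and 9. At day 8 the highest decile overlapped a day 6 peak in 78.2% and the lowest in 7.47%. Lost peaks had a median of 5.54 tags per 10 M and kept peaks 20.8. Gained peaks had 7.17 and shared day 8 peaks 18.1. Fold over input ran against this order, with a median of 9.15 in lost and 3.96 in kept peaks. Outside the densest regions, the 24.1% of day 6 peaks that were kept held 53.6% of the tags in peaks, and the 38.1% of day 8 peaks that were shared held 62.9%.

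**Figure D2:**
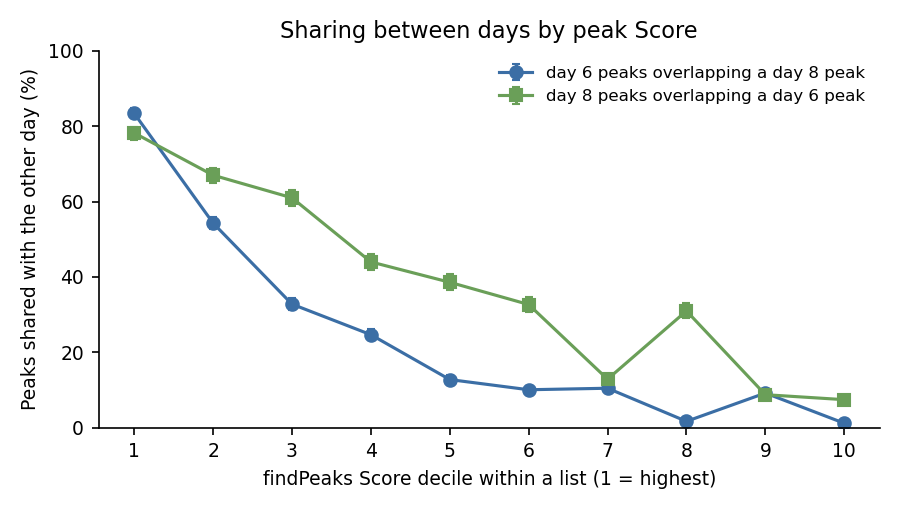
Percentage of peaks shared with the other day (y axis) by decile of findPeaks Score within each list (x axis, 1 highest), with Wilson 95% CIs, peaks of equal Score being ordered by tags. Sharing went from 83.4% to 1.22% at day 6 and from 78.2% to 7.47% at day 8, not evenly, with 12.9% in decile 7 and 31.0% in decile 8 at day 8.

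Cutting both lists to 20355 peaks by Score, which left the day 8 list whole, raised the kept share and, by less, the gained share. At that length 7005 of the day 6 peaks were kept (34.4%, CI 33.8 to 35.1), 13350 were lost, and 13276 day 8 peaks were gained (65.2%, CI 64.6 to 65.9). Promoters made up 34.4% of kept, 6.34% of lost and 9.36% of gained peaks, and the medians of distance to a start were 0.694 kb, 26.7 kb and 23.2 kb. The kept share was 45.5% between the top 10000 peaks of each list, 43.7% between the top 5000 and 20.8% between the top 1000. The 2 lists thus shared fewest of the peaks that each ranked highest. Yet 93.3% of the day 6 top 1000 overlapped some peak of the whole day 8 list, and 82.3% of the day 8 top 1000 some peak of the whole day 6 list.

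The kept peaks of highest Score were led by Kif13a. At this gene, which encodes a kinesin motor, a peak of 767 bp with 28.5 tags per 10 M and a Score of 123 (chr13:46930036-46930803) overlapped a day 8 peak of 1130 bp with 36.8 tags and a Score of 21. At Ate1, an arginyltransferase gene, the tags were 32.0 at day 6 and 34.6 at day 8. At Tm9sf1 they were 47.1 and 45.8. Sp3, which encodes a factor that binds GC boxes, had 48.7 and 58.3. Ndufs7, a subunit of respiratory complex I, had 29.3 and 15.9 at an intronic peak, and Trak1, an adaptor for mitochondrial transport, 44.5 and 35.8. Around the start of Lzts2 a 4065 bp day 6 peak overlapped a merged day 8 peak of 5040 bp, with 89.8 and 134 tags. The Score at day 6 was over 3 times that at day 8 for each of these 7 peaks while their tags differed far less. They were chosen by their day 6 Score, which is not scaled for depth, so this contrast in Score shows no change between days.

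The 5 lost peaks of highest Score and the 5 of highest Score at promoters together numbered 8. Those nearest to Rpl18 and Cope were in both sets, and those nearest to Rps6, Rab42 and Bst2 only in the promoter set. A peak of 1579 bp with 34.0 tags per 10 M and a Score of 88 (chr7:45717496-45719075) lay over the facing starts of Rpl18, a ribosomal protein gene, and Sphk2, a sphingosine kinase gene. Cope, a coatomer subunit gene that shares its promoter region with Ddx49, had a lost peak with 23.9 tags and a Score of 82. Rps6, the ribosomal protein phosphorylated by S6 kinase, had 20 tags and a Score of 81. Bst2, which encodes the antiviral protein tetherin, had 20.4 tags. A lost peak at the small nucleolar RNA genes Snora16a and Snora44 had 22.0 tags, with Rab42 as its nearest coding gene and its center at -5.71 kb from that start. Away from promoters the highest were 2 peaks on chromosome 1 nearest to Ugt1a1 (42.1 tags, Score 88) and to Hjurp (36.6 tags, Score 85), and an exonic peak of 4931408C20Rik with 17.2 tags. None of these peaks overlapped a day 8 peak. Their folds over input were low, from 2.42 at the Ugt1a1 peak to 3.68 at the Rab42 peak, beside a median of 9.15 in all lost peaks. None of them would enter at a fold of 4 or more.

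The gained peak of highest Score lay in Ogdhl. In an intron of this gene, which encodes a relative of 2-oxoglutarate dehydrogenase, a peak of 2065 bp appeared at day 8 with 57.7 tags per 10 M and a Score of 57 (chr14:32325649-32327714). Gained promoter peaks lay at Ing1, which encodes a reader of histone methylation, with 20 tags, and at Rora, the nuclear receptor that activates clock genes, with 19 tags. Others lay at starts of noncoding genes next to Fam160b1 (16.5 tags), to Mmadhc, a vitamin B12 metabolism gene (19 tags), and to Znfx1 (25.2 tags). A peak near the transcript end of Fam131a had 21.5 tags.

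Around their centers lost promoter peaks held fewer CpG than kept or gained ones, a wider contrast than over the promoters of the genes given above. In 500 bp on the peak center the median was 31.0 CpG in 2596 kept promoter peaks, 11 in 1028 lost and 30.0 in 1069 gained. The GC box was in 62.5% of kept (CI 60.6 to 64.4), 27.1% of lost (24.5 to 29.9) and 63.8% of gained promoter peaks (60.9 to 66.6), beside 60.7% of the 7224 promoter peaks of both lists. The ETS motif CCGGAAG was in 20.5%, 10.2% and 18.9%, beside 20%. The GR consensus ACANNNTGT was in 7.20%, 12.5% and 6.92%, beside 7.38%, and the MEF2 consensus, named for the myocyte enhancer factors, in 4.66%, 6.03% and 1.96%, beside 4.22%. All motifs were searched on both strands. The GC box contains a CpG, and the motifs were not separated from base composition.

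The order was the same among peaks of 1 width. Among promoter peaks of 500 bp the GC box was in 51.8% of kept, 20.1% of lost and 53.8% of gained. At day 6, 44.4% of 1146 promoter peaks with fewer than 15 CpG were kept, against 84.2% of 2478 with 15 or more. Among those of 500 bp the shares were 21.4% of 430 and 55% of 331. At day 8 the shares over all widths were 56.6% of 525 and 72.7% of 3075, and those at 500 bp did not differ by CpG beyond counting error, 36.0% of 242 and 36.8% of 532 (CIs 30.2 to 42.2 and 32.9 to 41.0). The limit of 15 was set after the values were seen. The lists differed as wholes in the same direction, with a median GC content of 55.2% in day 6 and 61.8% in day 8 promoter peaks and of 43.6% and 46.6% in intronic and intergenic peaks. The part of a difference in GC between the libraries was not tested. CpG-poor lost promoter peaks were also weak, with a median of 7.12 tags per 10 M against 10.5 for the CpG-rich lost ones.

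**Figure D3:**
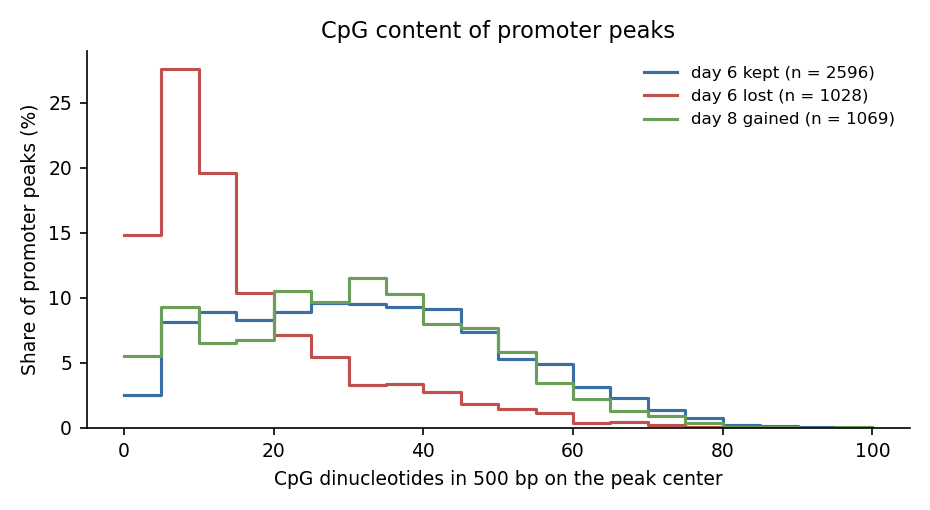
Distribution of CpG counts in 500 bp on the center (x axis, bins of 5) for promoter peaks that were kept, lost or gained (y axis, percent of each group). Lost promoter peaks gather at low counts around a median of 11, and the kept and gained curves lie close to each other.

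In intronic and intergenic peaks the GC box was in 24.7% of 4307 kept, 3.96% of 22265 lost and 10.5% of 10381 gained peaks, beside 10.4% of all 41164. The E-box CAGCTG, bound by myogenic factors, was in 27.9%, 22.2% and 23.0%, beside 23.8%. The GR consensus was in 14.1%, 18.5% and 15.5%, beside 16.8%, and the AP-1 motif TGANTCA in 14.6%, 17.2% and 14.3%, beside 15.8%. The palindromic CRE TGACGTCA was in under 1% of each, 0.882%, 0.319% and 0.308%, beside 0.415%. Repeats covered at least 50% of the window in 2.02% of kept, 3.58% of lost and 9.54% of gained intronic and intergenic peaks.

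Shared peaks were more often narrower than wider at day 8. Of 6865 pairs in which 1 day 6 peak met 1 day 8 peak, 3844 were narrower by any amount (56.0%, CI 54.8 to 57.2), 2627 wider (38.3%) and 394 of the same width. The median ratio of day 8 to day 6 width was 0.911, and the median width went from 1113 to 955 bp. Narrowed peaks, with at most 0.5 of the day 6 width, numbered 1110 (16.2%, CI 15.3 to 17.1), and broadened ones, with at least 2.0 times the width, 549 (8.00%, CI 7.38 to 8.66). Narrowing was found in 9.30% of 602 exonic and 10.4% of 2406 promoter pairs, and in 21.8% of 2874 intronic and 18.3% of 863 intergenic pairs. Broadening ranged from 6.90% at promoters to 9.63% in exons among these classes. Tags per kb hardly moved, with medians of 17.2 and 17.5 over all pairs. At equal length the ratio was 0.936 and 15.4% of 6266 pairs were narrowed, and between the top 5000 peaks narrowed and broadened pairs were near equal, 218 and 209. The 2 female lists cut to the same 20355 peaks had a median ratio of 1.03 and 9.59% of pairs narrowed. Their whole lists had 0.951 and 16.2%. The difference between sexes was not tested.

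The 5 narrowed peaks of highest Score and the 5 of highest Score at promoters together numbered 10. In Psme4, which encodes a proteasome activator, a peak of 3196 bp with 46.7 tags per 10 M became 990 bp with 17.1 tags. Ddit4l, an inhibitor of mTOR signaling, had 2367 bp and 34.4 tags at day 6 and 1122 bp and 24.6 tags at day 8. At the promoter of Usp36, a deubiquitinase gene, the width went from 1474 to 687 bp, and at Cttn, which encodes the actin-binding protein cortactin, from 1407 to 500 bp. Irf2bp2 was the nearest gene to an intergenic peak that went from 1903 to 810 bp. The other 5 were nearest to Zfp982, Ptms, Pdcl, Tbce and Ddx50.

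Broadened peaks were named by the same rule, and those of highest Score lay mostly at promoters. Zfp687, a zinc finger gene, went from 646 to 2027 bp and from 19 to 41.8 tags per 10 M. Thoc6, a subunit of an mRNA export complex, went from 665 to 2299 bp and from 18.6 to 48.0 tags. A peak nearest to Phospho1, a phosphatase gene, and at the start of Gm38958 went from 627 to 1643 bp. The others were nearest to Kdsr, Arhgap17 and Gm21992.

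Of the day 6 peaks 312 met 2 or more day 8 peaks (0.976%, CI 0.874 to 1.09), 278 of them exactly 2, and 270 day 8 peaks met 2 or more day 6 peaks. Split peaks had a median width of 3360 bp. Upstream of a start of Tpm1, which encodes a tropomyosin of the thin filament, a peak of 4403 bp with 71.0 tags (chr9:67048623-67053026) met day 8 peaks of 3739 bp with 88.5 tags and 500 bp with 5.61 tags. In Cav1, the caveolin-1 gene, 4552 bp with 62.3 tags met 2113 bp and 954 bp with 37.1 and 13.4 tags. Around Bcl6, a transcriptional repressor, 6731 bp with 124 tags met 5926 bp and 1484 bp with 94.5 and 22.1 tags. At Pink1, a kinase of mitochondrial quality control, 2777 bp with 55.6 tags met 1344 bp and 500 bp with 48.3 and 8.42 tags. Others were nearest to Mroh2a, Cd69, Iqcc, Usf3 and Mea1. Cutting the lists to equal length leaves the day 8 list whole and drops only day 6 peaks of low Score. The fates of the peaks named from kept to split could therefore not change there.

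At the level of genes, 4558 of 20021 autosomal protein-coding genes had a promoter peak at both days, a share of 22.8%. A further 1234 had one at day 6 only (6.16%) and 2032 at day 8 only (10.1%). So 21.3% of the 5792 genes with a day 6 promoter peak lost it (CI 20.3 to 22.4), and 30.8% of the 6590 genes with one at day 8 had none at day 6 (CI 29.7 to 32.0). At a fold over input of 4 or more these shares were 48.8% and 67.0%. Of the 1234 genes 1065 had a peak with no day 8 overlap, and in 169 the peak was kept but no longer reached the promoter. Of the 2032 genes 310 had a day 8 peak that overlapped a day 6 peak short of the promoter. A promoter peak here is any peak over the window, the one of highest Score where there were several, so where peaks split or merged the values of the 2 days cover unequal regions. Counts for the gene lists below stand beside these shares, which include genes not active in muscle.

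Of 20 calcium-handling genes, 11 had a promoter peak at both days (55%, all genes 22.8%), 3 at day 6 only (15%, all genes 6.16%) and 4 at day 8 only (20%, all genes 10.1%). Of all genes with a day 6 promoter peak 21.3% had none at day 8, the closer base for the 3 beside the 11. Of those with one at day 8, 30.8% had none at day 6, the closer base for the 4. In 9 members the promoter peaks of both days overlapped, and in all 9 the day 8 peak was wider and had more tags, by 1.01 to 3.02 times with a median of 1.86. In the other 2, Asph and Jph1, the peaks of highest Score lay at different places on the 2 days, with 3203 and 1372 bp and 57.2 and 28.7 tags at Asph and 2083 and 1089 bp and 27.3 and 30.5 tags at Jph1. Among 4249 such pairs over all genes, 44.7% had more tags at day 8 and the median ratio was 0.945. Casq1, the calcium-binding protein of the sarcoplasmic reticulum, had 31.5 and 93.5 tags per 10 M in peaks of 1392 and 5259 bp. Hrc, a lumenal calcium-binding protein, had 21.8 and 65.8 tags, the day 6 peak being nearest to another gene. Ryr1, the calcium release channel, had 23.7 and 44.6 tags. Jph2, which ties the reticulum to the plasma membrane, had 51.2 and 51.7 tags, and Jsrp1 18.4 and 33.0.

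Atp2a1 encodes the calcium pump of fast fibers. Its promoter peak of 3076 bp with 65.1 tags and a neighboring peak of 1957 bp with 38.8 tags at day 6 both lay in 1 day 8 peak of 8346 bp with 159 tags, so its ratio compares unequal regions. The promoter is printed for its muscle gene sequence, since the peak reached past it in both directions at day 8 (chr7:126463024-126463323, GRCm38.p6, gene strand). Capitals mark the E-box CAGCTG, which RefSeq promoters of this length held in 17.7% of 15983 matched genes.
Atp2a1: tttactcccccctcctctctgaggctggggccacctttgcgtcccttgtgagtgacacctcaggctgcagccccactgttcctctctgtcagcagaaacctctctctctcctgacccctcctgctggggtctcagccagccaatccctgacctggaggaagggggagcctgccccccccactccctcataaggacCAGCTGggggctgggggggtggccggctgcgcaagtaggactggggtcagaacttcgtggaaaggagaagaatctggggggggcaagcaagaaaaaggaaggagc

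Members with a peak at 1 day only went both ways. Cacna1s, the voltage sensor of excitation-contraction coupling, had a promoter peak of 1754 bp with 42.1 tags at day 8 only. Cacna2d1 had 17.1, Atp2a2, the pump of slow fibers, 7.79 and Cacna1h 9.35. At day 6 only, Trdn, the triadin gene, had 57.0 tags in a peak of 5133 bp that narrowed and no longer reached the promoter, Stac3, a coupling protein gene, 14.8 and Pln, which encodes the pump inhibitor phospholamban, 6.92. The counts of this list were the same at equal length.

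Of 24 glucocorticoid target genes 17 had a promoter peak at both days (70.8%, all genes 22.8%), 1 at day 6 only (4.17%, all genes 6.16%), 1 at day 8 only (4.17%, all genes 10.1%) and 5 at neither. At Errfi1 and Trim63, counted at both days, the day 6 peak of highest Score was lost and another was gained. Of all genes with a day 6 promoter peak 21.3% had none at day 8. In 15 overlapping pairs the ratio of day 8 to day 6 tags ran from 0.577 to 2.96 with a median of 0.910, and 5 had more tags at day 8. Per1, a clock gene induced by GR, had the most tags, 215 and 182 per 10 M in peaks of 6886 and 6489 bp. Glul, the glutamine synthetase gene, had 54.4 and 57.7, and Foxo3, a factor that drives atrophy genes, 50.2 and 67.6. Ddit4, an inhibitor of mTOR, had 11.3 and 33.4. Sgk1, a GR-induced kinase gene, had 116 and 67.0 in a peak that split, and Cebpd, a transcription factor of the acute phase, 124 and 78.2 in peaks of 5463 and 2120 bp. Dusp1 and Klf9 had 153 and 139, and 114 and 115.

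Single-day members of this list were few. Angptl4, which inhibits lipoprotein lipase, had 3 peaks at day 6, the one at its promoter with 11.9 tags, and all 3 were lost. Klf15, a GR target that drives amino acid breakdown, counted as day 8 only, but its day 6 peak of 2247 bp with 49.3 tags began 0.144 kb after the start and overlapped the day 8 peak of 2383 bp with 54.2 tags. Fkbp5, a GR cochaperone gene, had 2 intronic peaks at day 6 with 7.12 and 4.75 tags, and both were lost. Nr3c1, the gene of GR itself, had promoter peaks of 1516 and 934 bp with 21.8 and 33.2 tags at day 6 that lay within 1 peak of 3997 bp with 88.2 tags at day 8. It was added after its values were seen.

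**Figure D4:**
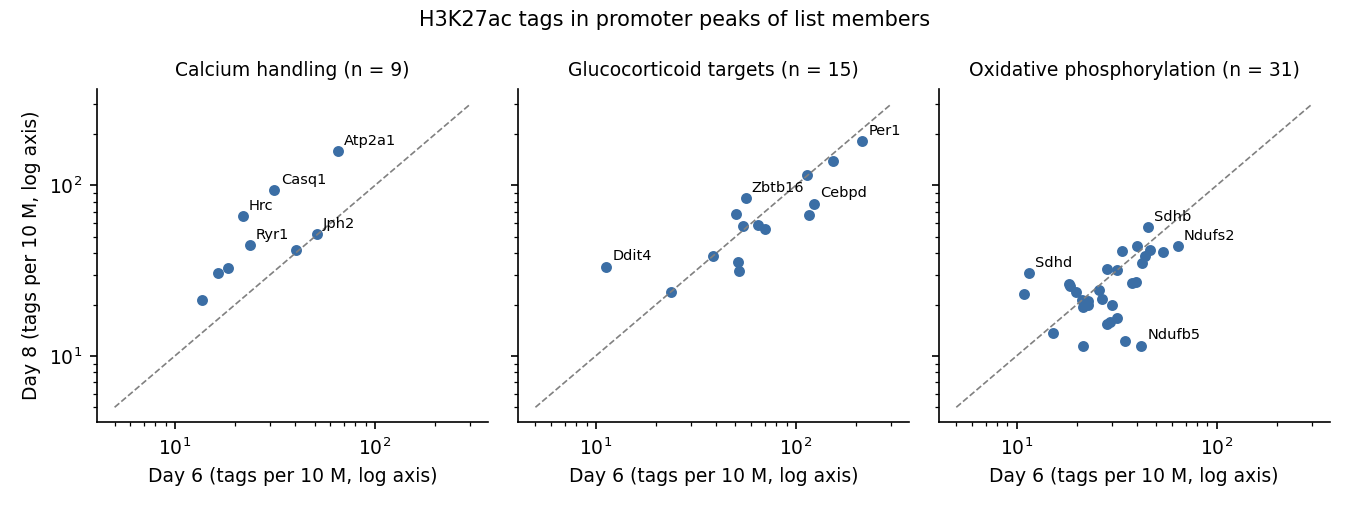
Tags per 10 M in the promoter peak at day 6 (x axis) and day 8 (y axis), both log axes, for members whose promoter peaks overlapped between days. All 9 calcium-handling points lie above the dashed line of equal tags, against 5 of 15 glucocorticoid targets and 10 of 31 oxidative phosphorylation genes.

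Zbtb16, a zinc finger repressor gene induced by glucocorticoids, had several wide peaks that changed shape. It was the nearest gene to 19 day 6 peaks covering 41.6 kb, of which 9 were kept, and to 15 day 8 peaks covering 22.9 kb, of which 12 were shared. The peak over its promoter went from 2316 to 3251 bp and from 56.2 to 83.9 tags per 10 M. In its intron, about 100 kb from the start, 3 wide day 6 peaks of 5367, 4130 and 7567 bp with 80.3, 81.9 and 157 tags each split. The widest (chr9:48732643-48740210) met day 8 peaks of 3698 bp with 82.9 tags and 1791 bp with 39.9 tags. An intronic peak of 3768 bp with 60.5 tags kept 500 bp with 8.10 tags. The sequence below is 300 bases on the center of the widest peak (chr9:48736277-48736576, mm10, plus strand), with the 2 matches to the GR consensus ACANNNTGT in capitals. It is shown because the promoter and the distal peaks of this GR target moved differently. A match is not a measured binding site.
Zbtb16: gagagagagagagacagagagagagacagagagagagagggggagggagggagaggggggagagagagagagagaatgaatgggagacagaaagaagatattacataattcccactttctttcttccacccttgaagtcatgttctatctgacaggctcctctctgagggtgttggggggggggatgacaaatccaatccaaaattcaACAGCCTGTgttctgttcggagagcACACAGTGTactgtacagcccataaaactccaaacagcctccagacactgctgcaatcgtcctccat

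**Figure D5:**
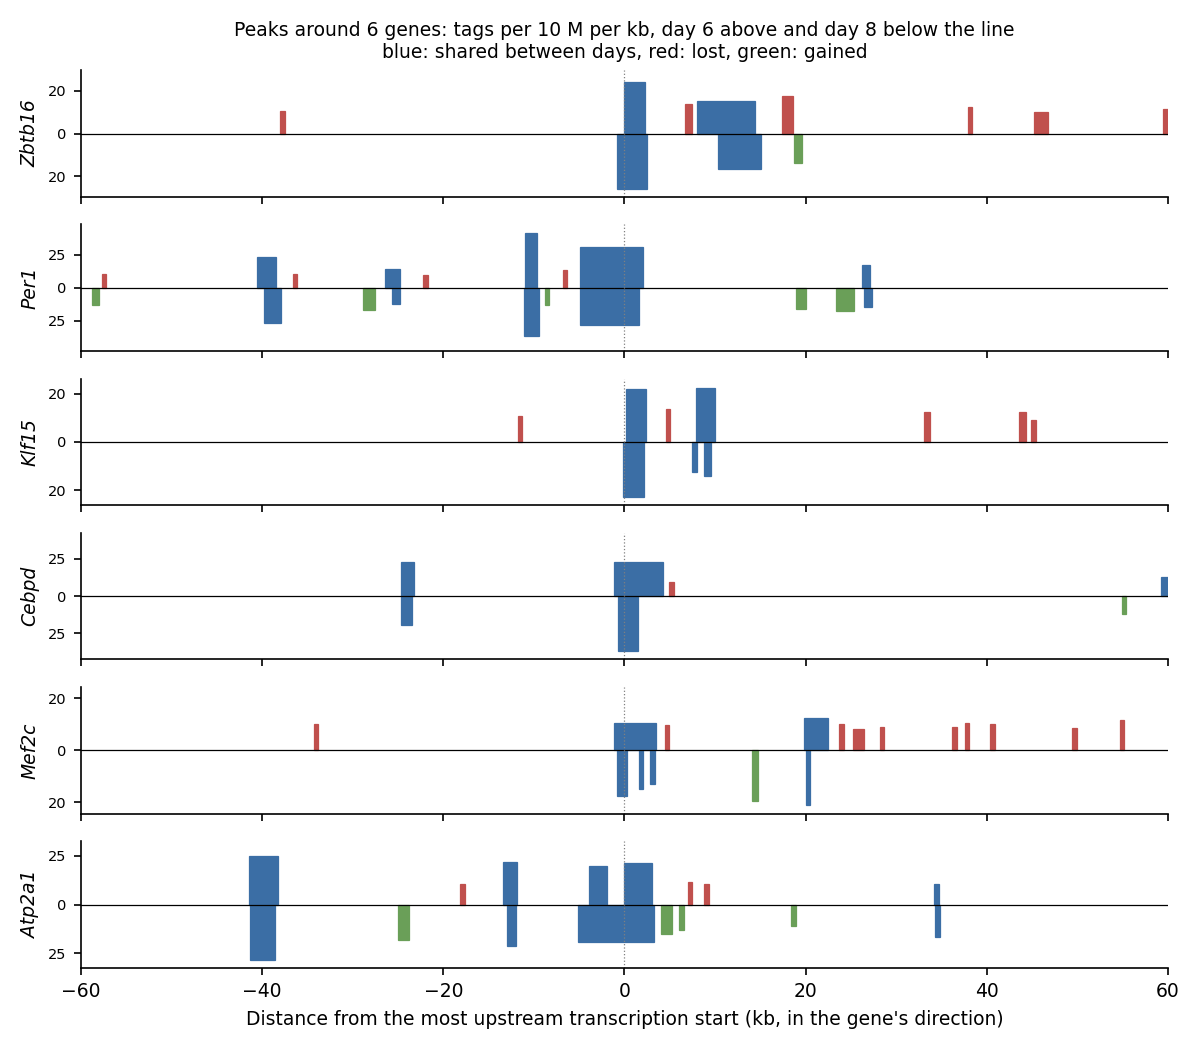
Peaks within 60 kb of the most upstream start of 6 genes, as tags per 10 M per kb (y axis, day 6 above and day 8 below the line) against distance from the start (x axis, kb). The promoter-proximal peaks are shared (blue), and lost (red) peaks outnumber gained (green) ones at Zbtb16, Klf15 and Mef2c but not at Per1, Cebpd and Atp2a1.

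Of 21 myogenic regulator genes 12 had a promoter peak at both days (57.1%, all genes 22.8%), 0 at day 6 only (all genes 6.16%) and 6 at day 8 only (28.6%, all genes 10.1%). Of all genes with a day 8 promoter peak 30.8% had none at day 6, the closer base for the 6 beside the 12. At Mef2c and Nfix, counted at both days, the promoter peaks of highest Score did not overlap. Among the 6 were Nfic (63.0 tags per 10 M), Hdac4 (27.4), Eya3 (22.8), Myog, the myogenin gene (17.5), and Eya1 (32.4). At Nfic and Eya1 a day 6 peak of similar width lay short of the promoter. Mef2d, another myocyte enhancer factor gene, had 233 and 232 tags, the latter in a merged peak. At Mef2c, a myocyte enhancer factor gene, 28 of the 30 nearest day 6 peaks were lost, beside 75.9% of all day 6 peaks. Most of the 30 had the minimum width of 500 bp, at which 6.31% of all intronic and 2.89% of all intergenic day 6 peaks were kept. The Mef2c promoter peak of 4552 bp with 47.5 tags split into 3, of which the widest had 1022 bp with 17.8 tags. A peak of 3527 bp with 44.1 tags at another start of Mef2c was lost.

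Of 34 genes of the sarcomere 17 had a promoter peak at both days (50.0%, all genes 22.8%) and 11 at neither. There were 3 at day 6 only (8.82%, all genes 6.16%) and 3 at day 8 only (8.82%, all genes 10.1%). At Myl1, Mylpf and Tpm1, counted at both days, the promoter peaks of highest Score did not overlap. Tnnt3, the fast troponin T gene, had 117 and 63.3 tags per 10 M in a peak that split, Des, the desmin gene, 65.7 and 79.5, and Tpm2 39.0 and 68.9. At day 8 only were Mybpc2 (74.5), Tnni2, the fast troponin I gene (66.7), and Actn3 (23.7), each in a peak that overlapped a day 6 peak short of the promoter. At day 6 only were Myh4, the IIB myosin heavy chain gene (51.4), whose peak split, and Myom1 (28.1) and Actn2 (5.93), whose peaks were lost. The 11 members with none at either day included the slow-fiber genes Myh7, Myl2, Myl3, Tnni1 and Tnnt1 and the fast myosin genes Myh1 and Myh2. The slow-fiber genes Tnnc1 and Tpm3 had one at both days, with 36.4 and 22.1 tags and with 29.1 and 32.1. The peaks counted for Tnnc1 were nearest to another gene on both days. At equal length 2 members changed class.

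Ppargc1a encodes the coactivator PGC-1α, a regulator of mitochondrial biogenesis. All 21 of its nearest day 6 peaks were lost, beside 75.9% of all day 6 peaks, among them those at its start with 13.3 tags per 10 M and at an internal start with 26.7 tags, and its 4 day 8 peaks, with 6.23 to 8.42 tags, overlapped none of them, though 1 lay within 1 kb of a lost peak. The male vehicle list had no peak over the promoters of Ppargc1a. Of 29 lipid metabolism genes 13 had a promoter peak at both days (44.8%, all genes 22.8%), 5 at day 6 only (17.2%, all genes 6.16%) and 4 at day 8 only (13.8%, all genes 10.1%). The 5 were Ppargc1a, Ucp3 (44.1 tags, narrowed), Mlycd (31.7), Decr1 (14.6) and Cd36, a fatty acid transporter gene (10.3). The 4 were Slc27a1 (38.0), Esrra (16.5), Ppara (14.7) and Acadvl (13.4). At Acsl1 and Lipe, counted at both days, the promoter peaks of highest Score did not overlap. Pnpla2, the triglyceride lipase gene, had 76.0 and 62.3 tags.

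Of 21 glucose metabolism genes 16 had a promoter peak at both days (76.2%, all genes 22.8%), 1 at day 6 only (4.76%, all genes 6.16%) and 3 at day 8 only (14.3%, all genes 10.1%). Hk2, the hexokinase gene of muscle, had 7.32 and 45.5 tags per 10 M and Pygm, the glycogen phosphorylase gene, 40.4 and 92.3, both in merged day 8 peaks, and Aldoa 141 and 131. Ppp1r3a, a glycogen-targeting subunit gene, had 30.5 and 9.35. Of 41 oxidative phosphorylation genes 31 had a promoter peak at both days (75.6%, all genes 22.8%), 6 at day 6 only (14.6%, all genes 6.16%) and 3 at day 8 only (7.32%, all genes 10.1%). The median ratio of tags over 31 pairs was 0.894, and 10 had more at day 8. Sdhd had 11.5 and 30.5 tags and Ndufb5 41.9 and 11.5. The 6 were Ndufs4, Atp5a1, Cox5b, Ndufb3, Ndufa10 and Ndufa5, with 14.6 to 25.9 tags, and the peaks of Atp5a1, Cox5b and Ndufb3 were narrowed and not lost.

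Of 23 genes of IGF1 and PI3K signaling 14 had a promoter peak at both days (60.9%, all genes 22.8%), 1 at day 6 only (4.35%, all genes 6.16%) and 5 at day 8 only (21.7%, all genes 10.1%). Of all genes with a day 8 promoter peak 30.8% had none at day 6, the closer base for the 5 beside the 14. At day 8 only were Irs1, an insulin receptor substrate gene (37.1 tags per 10 M), Rictor (20.3), Tsc2 (13.7), Igf1r, the IGF1 receptor gene (9.04), and Mtor (7.17). At Irs1 the day 8 peak overlapped a day 6 peak and was at least 2.0 times as wide. Rps6kb1, the S6 kinase gene, had 13.3 tags at day 6 only. Insr had 32.4 and 42.7 tags and Gsk3b 95.9 and 44.6. At equal length 2 members changed class.

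Clock genes mostly had a promoter peak at both days. Of 19 members 15 had a promoter peak at both days (78.9%, all genes 22.8%) and 0 at day 6 only (all genes 6.16%). At day 8 only there was 1, Arntl with 11.8 tags per 10 M (5.26%, all genes 10.1%). At equal length the counts were 14, 0 and 2. At Per2, Rora and Tef, counted at both days, the promoter peaks of highest Score did not overlap. Nr1d1, which encodes the repressor REV-ERBα, had 143 and 85.4 tags and Dbp 120 and 145. Of 60 ribosomal protein genes 34 had one at both days, 5 at day 6 only and 9 at day 8 only, and of 31 proteasome genes 21, 2 and 3. At equal length these counts were 30, 4 and 13 for the ribosomal protein genes and 17, 2 and 7 for the proteasome genes.

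Markers of other cells were nearly all without a promoter peak. Among 8 markers each of fibroblasts, immune cells and adipocytes none had one at both days, and 1 each had one at day 6 only, Dcn (5.54 tags per 10 M), Lyz2 (5.74) and Pparg (8.90). Of 8 endothelial markers Egfl7 had one at both days and Pecam1 (28.7 tags, narrowed) and Tek (7.12, lost) at day 6 only. Of 8 satellite cell markers Sdc4 had one at both days, while Pax7 and Myf5 had none. The summed promoter tags of the endothelial markers were 44.7 at day 6 and 7.48 at day 8. Of the day 6 peaks nearest to the endothelial markers 45 were lost and 7 kept. The numbers were 33 and 0 for fibroblast and 22 and 3 for satellite cell markers. For immune, adipocyte, and mural and Schwann cell markers they were 7 and 0, 6 and 1, and 11 and 0. Of all day 6 peaks 75.9% were lost. The part of other cells in the lost peaks was not tested.

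Kept peaks overlapped those of vehicle-treated males more often than lost or gained peaks did. Of the kept day 6 peaks 88.6% overlapped a peak of the vehicle-treated males (CI 87.9 to 89.3), against 19.6% of lost (19.1 to 20.1) and 31.9% of gained peaks (31.1 to 32.8). In the day 4 males the shares were 60.3%, 4.31% and 12.5%. The vehicle list had 87199 autosomal peaks, and with its 20355 peaks of highest Score the shares were 60.2%, 8.23% and 15.9%. For genes, 97.0% of those with a promoter peak at both days had one in vehicle, 77.9% of those with one at day 6 only and 82.2% at day 8 only. Between the female day 6 and day 8 lists 42.2% of 121551 peaks were kept, and 41.6% at 20355 peaks each, against 34.4% in males at that length. The female day 8 list held 98.1% of the male kept, 39.9% of the lost and 43.9% of the gained peaks, and its 20355 peaks of highest Score held 58.8%, 18.8% and 22.6%.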

How the data were processed

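Chromatin of myofibers isolated from quadriceps was precipitated with anti-H3K27ac. Per the labels and the study's methods, the authors trimmed reads with HOMER tools, aligned them to mm10 (Bowtie2 2.2.6 in the submitters' processing notes) and called peaks with HOMER findPeaks in histone style, with a fold setting of 2 over the input. The step that turned 2 libraries into 1 list is not given in the sources used here. In the deposited lists the normalized tag count is a signal per 10 M tags, the findPeaks Score is a score on the scale of unscaled tags, and the enrichment is a fold or ratio over input. The findPeaks p-values were not used.

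Overlaps of at least 1 bp were computed with Python 3.11.15, pandas 2.3.3 and numpy 2.4.6, checked with bedtools 2.31.1 and tested on simulated lists. Genomic classes and starts came from 45756 curated RefSeq transcripts and 20021 autosomal protein-coding genes. A promoter ran from 1 kb before to 100 bp after a start. Within each fate the 5 peaks of highest Score overall and the 5 at promoters were named, outside the densest regions, and in each gene list up to 4 members for each promoter fate by Score. Further members, broadened peaks, loci and printed sequences were chosen after their values were seen. The members and the 17 gene lists (371 entries, all matched) were chosen with earlier results of these data known. Some items that these rules would name are not reported here.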

Additional observations from a re-analysis of the deposited data

How the results depend on the processing

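The kept share of day 6 peaks was 24.1%. It was 34.4% with the lists cut to the shorter one by Score, 36.7% cut by normalized tags (chosen after seeing the data), 16.6% with 50% of a peak covered, 29.6% with peaks within 1 kb shared, 10.5% at a fold of 4 or more and 21.4% at the same lowest Score per 10 M tags. In that order the gained share, 61.8%, became 65.2%, 62.9%, 70.3%, 54.7%, 81.5% and 53.0%, and the split share, 0.976%, became 1.40%, 1.53%, 0.663%, 3.10%, 0.413% and 0.766%. The narrowed share, 16.2%, was 17.3% with 50% covered, 15.2% within 1 kb, 19.9% at a fold of 4 and 29.8% with narrowed set at 0.67 of the width. The share of genes that lost a promoter peak, 21.3%, was 20.2% and 19.7% with cut lists, 19.4% within 1 kb, 48.8% at a fold of 4, 26.9% at the same lowest Score and 20.1% with a 2 kb promoter window, and had no value under 50% covered. Leaving out the densest regions or adding all chromosomes moved these 5 shares by less than their CIs. The cause of the other moves was not tested. The GC box was in 63.0%, 59.5%, 63.0% and 51.8% of kept promoter peaks, 29.6%, 29.5%, 31.9% and 20.1% of lost and 64.4%, 66.7%, 67.0% and 53.8% of gained ones, with the lists cut by Score, at a fold of 4, at the same lowest Score and among 500 bp peaks, all chosen after seeing the data.

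No paired analysis was possible because each day has 1 deposited list, which leaves no replicate to omit. Peaks near the lowest Score rest on few tags, and at that depth absence and weak signal cannot be told apart.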

Other observations

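Nearest-gene counts of lost and gained peaks were led by long genes. The genes nearest to most lost peaks were Nfib, a nuclear factor I gene, with 40, Rbfox1, a splicing factor gene, with 39 and Ebf1, a transcription factor gene, with 32. Those nearest to most gained peaks were Cdh8, a cadherin gene, with 24, Pcdh7, a protocadherin gene, with 22 and Adgrl3, an adhesion receptor gene, with 17. Kept peaks were most frequent near Fam53b, with 12. These counts were not scaled by gene length or by the distance to the next gene.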
